A study of Mus musculus with 2 samples.

Results

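Counts of 10 eosinophil genes were examined, out of the 24421 genes in each table. The 10 comprised 3 granule proteins (Prg2, Epx and Prg3), 3 eosinophil-associated ribonucleases (Ear1, Ear2 and Ear6), 3 surface receptors (Il5ra, Ccr3 and Siglecf) and the lipid enzyme Alox15. They were picked because several of them had 0 counts in one library and many in the other, so the difference between the libraries in these genes chose the set and is a description only. All 10 symbols were found in both tables.

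The data were gene counts of hematopoietic stem cells (HSCs), the marrow cells that renew themselves and form all blood lineages, from C57BL/6 mice. One library was labelled WT (Ezh2 +/+ CreERT+/-) and 1 was labelled Ezh2 KO (Ezh2 Δ/Δ CreERT+/-), where Ezh2 encodes the methyltransferase of Polycomb repressive complex 2. In both groups CD45.2 marrow carrying a tamoxifen-inducible Cre had been grafted into irradiated CD45.1 mice, 100 µl of tamoxifen at 10 mg/ml was given daily for 5 days, and CD150+CD48-CD34-Flt3- LSK cells (lineage-negative, Sca-1+, c-Kit+) were sorted 1 month later. The sources used here do not give the age or sex of the mice, the number pooled per library, the promoter of the Cre, or a sort on CD45.2 against remaining host cells.

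Eosinophils are granulocytes that arise in the marrow under IL-5 and act in tissue against parasites and in allergic inflammation. Their specific granules are packed with cationic toxic proteins, which are made while the cell is still a marrow progenitor, whereas receptors such as CCR3 and Siglec-F mark the cell as it matures. Among the genes examined, Prg2 encodes major basic protein, the crystalline core of the granule, and Prg3 its homolog. Epx encodes eosinophil peroxidase, and the Ear genes encode small secreted ribonucleases.

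Some of these genes lie side by side, and some are near copies of each other, which bears on how reads could be assigned. On GRCm38, the assembly that mm10 names, Prg2 (chr2:84980461-84983632, plus strand) and Prg3 (chr2:84988215-84993886, plus strand) are separated by 4582 bases. Epx lies at chr11:87864000-87875536 on the minus strand. Ear1 (chr14:43818765-43875517, minus strand), Ear2 (chr14:44102654-44103534, plus strand) and Ear6 (chr14:51853699-51854643, plus strand) share chromosome 14. The other genes are Il5ra (chr6:106710357-106749037, minus strand), Ccr3 (chr9:124021972-124031689, plus strand), Siglecf (chr7:43351341-43359531, plus strand) and Alox15 (chr11:70344152-70352031, minus strand).

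The first 60 coding bases of the 3 ribonuclease genes are shown, from GENCODE M21 transcripts on GRCm38, because they illustrate how little separates the copies over a stretch about as long as a read. Each runs 5′ to 3′ on the coding strand, from the start codon (chr14:43819350-43819409, minus; chr14:44102887-44102946, plus; chr14:51853998-51854057, plus), and capitals mark the 4 of 60 positions at which the 3 genes are not all alike.
Ear1: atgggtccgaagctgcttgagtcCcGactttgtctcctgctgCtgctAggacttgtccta
Ear2: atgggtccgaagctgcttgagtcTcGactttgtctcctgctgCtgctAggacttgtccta
Ear6: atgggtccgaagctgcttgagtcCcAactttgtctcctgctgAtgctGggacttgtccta
Ear1 and Ear2 differed at 1 of these positions, Ear1 and Ear6 at 3, and Ear2 and Ear6 at 4. Over the whole coding sequence, Ear1 was 95.1% identical to Ear2 and 87.3% identical to Ear6. In the transcripts of Ear1, 321 of 654 windows of 60 bases (49.1%) were also found, base for base, in another annotated gene, namely Ear2, Ear10 or a pair of Ear pseudogenes. For Ear2 it was 216 of 660 windows (32.7%), and for Ear6, Prg2, Epx and Prg3 it was 0. Reads from exact copies fit more than 1 place and would enter no gene, so that counts of Ear1 and Ear2 may be too low. Whether near copies also exchanged reads was not tested. Counts of Ear6 and of the granule proteins are not touched by exact copies in other annotated genes, and copies elsewhere in the genome were not searched. Prg2 and Prg3, although neighbours of related function, were 64.1% identical in coding sequence. Epx was 70.7% identical to its neutrophil counterpart Mpo.

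The 250 bases before the start site are shown for 4 of the genes at 0 in WT, as given by RefSeq on GRCm38.p6. Epx is at chr11:87875537-87875786 (minus strand), Prg3 at chr2:84987965-84988214 (plus), Ear1 at chr14:43819640-43819889 (minus) and Ear2 at chr14:44102404-44102653 (plus). Capitals mark matches to the motifs searched, on both strands, and each sequence ends 1 base before the start site.
Epx: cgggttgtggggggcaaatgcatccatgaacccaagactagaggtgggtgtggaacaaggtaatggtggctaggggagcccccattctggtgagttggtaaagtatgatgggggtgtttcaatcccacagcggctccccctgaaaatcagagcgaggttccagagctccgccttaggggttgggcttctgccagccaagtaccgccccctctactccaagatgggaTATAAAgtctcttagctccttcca
Prg3: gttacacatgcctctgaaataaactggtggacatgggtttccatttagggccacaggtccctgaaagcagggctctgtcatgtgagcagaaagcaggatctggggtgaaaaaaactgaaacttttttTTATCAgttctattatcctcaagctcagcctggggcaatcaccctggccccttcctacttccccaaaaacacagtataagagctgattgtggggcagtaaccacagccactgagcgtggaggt
Ear1: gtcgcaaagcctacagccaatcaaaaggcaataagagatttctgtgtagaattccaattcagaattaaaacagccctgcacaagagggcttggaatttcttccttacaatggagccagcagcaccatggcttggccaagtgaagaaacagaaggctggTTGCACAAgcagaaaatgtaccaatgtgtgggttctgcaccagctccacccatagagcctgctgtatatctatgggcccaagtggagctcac
Ear2: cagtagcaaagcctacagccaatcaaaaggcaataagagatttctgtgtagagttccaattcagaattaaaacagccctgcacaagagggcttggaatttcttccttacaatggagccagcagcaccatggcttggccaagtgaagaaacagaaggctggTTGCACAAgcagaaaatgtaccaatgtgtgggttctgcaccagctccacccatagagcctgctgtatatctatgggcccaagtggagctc
A GATA site was taken as any of 4 words, AGATAA and its form ending in a G (AGATAG), and the same pair beginning with a T (TGATAA and, ending in a G, TGATAG). The other motifs were a C/EBP core (TTGCNNAA), a PU.1 site (GAGGAAG) and a TATA box (TATAAA), and none of the matches in these 4 windows overlaps another. In Epx the capitals are a TATA box at -24 to -19. In Prg3 they are a GATA site on the minus strand at -123 to -118, printed as its complement. Ear1 and Ear2 carry the same C/EBP core, at -92 to -85 and -90 to -83, within windows that were 97.6% identical to each other. Of the 8 genes of the set that have an entry in the RefSeq table, which leaves out Prg2 and Alox15, 3 had a GATA site (Prg3, Il5ra and Ccr3), 2 a C/EBP core (Ear1 and Ear2), 1 a PU.1 site (Siglecf) and 1 a TATA box (Epx). Among all 32851 promoters in the table, 26.5% had a GATA site, 9.56% a C/EBP core, 10.6% a PU.1 site and 12.4% a TATA box. Ear6, whose window was 78.2% identical to that of Ear1, had none of the 4. No motif was common to all 8 windows.

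Before the counts of the set, the libraries themselves need describing. Gene counts summed to 5763118 for WT and 4157280 for the Ezh2 KO-labelled library, so that 3 counts, taken as the floor, were 0.521 and 0.722 CPM, a level relative to the gene counts of the library. Ezh2 had 166 counts in WT and 129 in the Ezh2 KO-labelled library. Relative to the gene counts of each library, Ezh2 was not lower in the Ezh2 KO-labelled library. A count over a whole gene cannot show whether part of it was deleted, so these counts do not test the labels. The libraries also differed in sex-linked genes. Xist counts were 801 in WT and 4 in the other library, whereas the Y-linked genes Ddx3y, Eif2s3y, Kdm5d and Uty had 0 counts in WT and 275, 194, 106 and 106 in the other. Genotype, sex-linked expression and anything else that differed between the source mice cannot be told apart with 1 library each. All 19 genes fixed as marks of HSCs and of the sort gate passed the expression filter (a mean of at least 1 CPM). They include Cd48, Cd34 and Flt3, which the gate selects against, so that passing does not test the sort. Of the 19, 0 differed by 2-fold, with a median log2 ratio of 0.02. Of all genes passing, 4.91% were at least 2-fold higher and 3.9% lower in the Ezh2 KO-labelled library.

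No group had a replicate, so no test was run and no p-value is given. Intervals are exact 95% intervals for counting error alone, since reads amplified by PCR and carrying no molecular identifiers cannot be taken as separate molecules. Ratios are the Ezh2 KO-labelled library over WT, on counts divided by size factors that align the libraries. A gene at 0 in WT was given a lower bound, computed as if it had 3 counts there and leaving aside the counting error of the other count.

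The granule proteins had the most counts. Prg2 had 0 counts in WT and 2030 in the Ezh2 KO-labelled library (interval 1943 to 2120), which was 488.3 CPM and at least 919-fold higher. Epx had 0 and 1000 counts (939 to 1064 in the latter), at least 453-fold higher. Prg3 had 0 and 116 counts (95.9 to 139), at least 52.5-fold higher. All 3 genes were therefore unseen in the deeper library. In bulk RNA, more cells of a type and more RNA per cell cannot be told apart, and this holds for each value here.

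The ribonucleases followed the same pattern at lower counts. Ear1 had 0 counts in WT and 49 in the Ezh2 KO-labelled library (36.3 to 64.8), at least 22.2-fold higher. Ear6, which has no exact copy of read length in another annotated gene, had 0 and 29 counts (19.4 to 41.6), at least 13.1-fold higher. Ear2 had 0 and 10 counts (4.80 to 18.4), at least 4.53-fold higher. All 3 were thus unseen in WT, as the granule proteins were. Reads aligned to more than 1 place are tallied apart in both tables and enter no gene, so that counts of Ear1 and Ear2 may be too low in either library.

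The receptors had few counts in either library. Il5ra, the specific chain of the IL-5 receptor and the earliest of the receptors to appear on eosinophil progenitors, had 2 counts in WT and 8 in the Ezh2 KO-labelled library, a ratio of 5.43 with an interval of 1.08 to 52.5. Ccr3, the eotaxin receptor, had 5 and 4 counts, a ratio of 1.09 with an interval of 0.216 to 5.05. Siglecf, a sialic acid-binding lectin of mature mouse eosinophils, had the same counts, 5 and 4. For Ccr3 and Siglecf no difference was detectable at this depth. The receptors summed to 12 counts in WT and 16 in the Ezh2 KO-labelled library.

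Alox15, an enzyme that oxygenates arachidonic acid and is expressed by eosinophils and some macrophages, was the 1 gene of the set with counts in WT only. It had 4 counts in WT (1.09 to 10.2) and 0 in the Ezh2 KO-labelled library, which allows up to 3. Both values lie about the floor, and no fold is given.

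**Figure D1:**
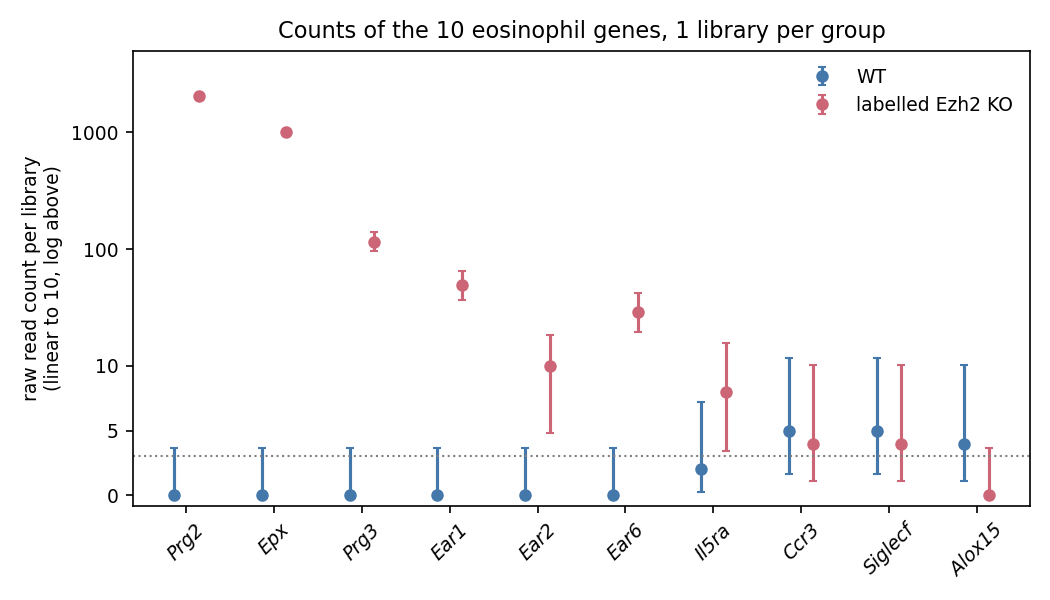
Raw read counts of each gene in the WT library (blue) and in the Ezh2 KO-labelled library (red), with exact 95% counting intervals and the floor of 3 counts as a dotted line. The vertical axis is linear up to 10 and logarithmic above. Prg2, Epx, Prg3 and the Ear genes are at 0 in WT and between 10 and 2030 in the other library, whereas Ccr3 and Siglecf are at 5 and 4.

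In counts, 6 of the 10 genes were at 0 in WT, 1 was at 0 in the Ezh2 KO-labelled library and 3 had counts in both, with no count above 5 in WT. The expression filter was passed by 7 genes, and all 7 were at least 2-fold higher in the Ezh2 KO-labelled library, beside 4.91% of the 12588 genes that passed in all. The 6 genes at 0 in WT also had their whole interval beyond 2-fold, as had 1.32% of all genes passing. None of the 7 was called lower, against 3.9% of all genes passing. The 6 at 0 in WT could not be lower, and Alox15, with counts in WT only, was outside the filter and could not be called. These shares are given for scale only, because the genes were chosen on this difference and those at 0 in WT could pass the filter only by being high in the other library. Il5ra (1.14 CPM on average) and Ear2 (1.20 CPM) were just inside the filter, and Ccr3 and Siglecf (0.915 CPM each) were just outside it.

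**Figure D2:**
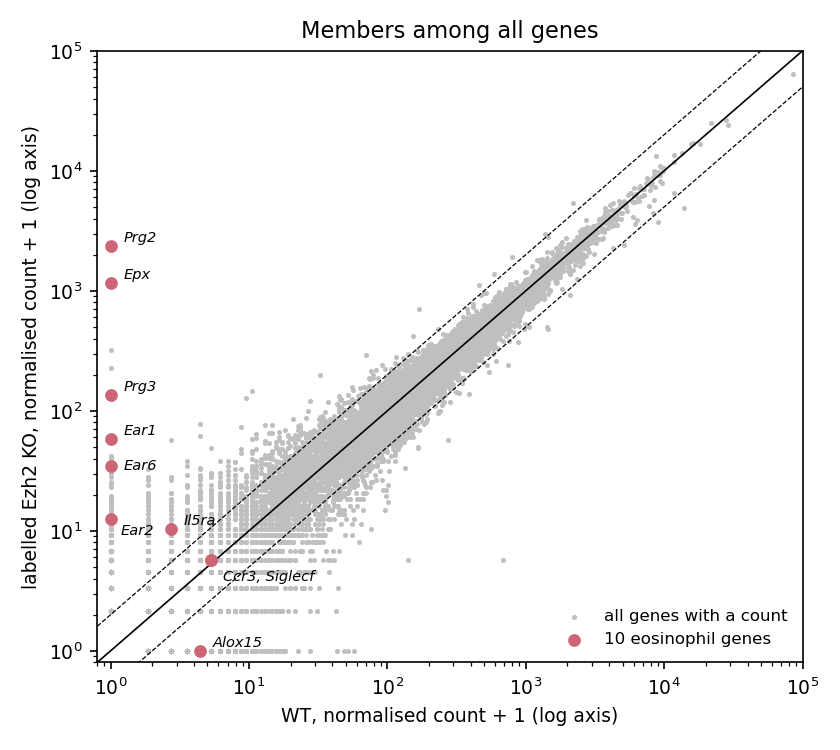
Normalised counts plus 1 of every gene with a count, WT on the horizontal axis and the Ezh2 KO-labelled library on the vertical axis, both logarithmic, with the line of equality (solid) and 2-fold lines (dashed). Prg2 and Epx stand highest among the genes at 0 in WT along the left edge, and Ccr3 and Siglecf, with 5 and 4 counts each, lie near the line of equality.

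Together the 10 genes took 16 of the gene counts in WT (0.000278%) and 3250 in the Ezh2 KO-labelled library (0.0782%, 0.0755 to 0.0809). Most of the latter was due to a pair of genes. Prg2 gave 62.5% of these 3250 counts, Epx 30.8%, Prg3 3.57% and the Ear genes together 88 counts. Without Prg2 and Epx, the share fell to 0.00529% (220 counts). Without the Ear genes, some of whose reads may be left uncounted or misplaced among copies, it was 0.0761%.

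Compared per length, the levels in the Ezh2 KO-labelled library spanned 3 orders of magnitude. Counts were divided by exon length and scaled to an equal total in each library, as in TPM. On this scale Prg2 was at 1925, the 49th highest of the 13482 genes with a count and a known length, and Epx was at 290, the 573rd. Prg2 transcript was thus among the most abundant in this library, although it was not seen in WT. Prg3 was at 97.1, Ear1 at 53.3, Ear6 at 24.4 and Ear2 at 11.1 on the same scale.

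The receptors were far lower. Il5ra was at 1.78 per length in the Ezh2 KO-labelled library and 0.33 in WT, Siglecf at 1.14 and 1.06, and Ccr3 at 0.97 and 0.90. The counting intervals of these 3 overlapped in the Ezh2 KO-labelled library, so that their order is not resolved. Prg2 exceeded Il5ra by 1083-fold per length (548 to 2511) and Siglecf by 1690-fold (659 to 6207).

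Within the granule proteins, Prg2 exceeded Epx by 6.63-fold per length (6.14 to 7.16) and Prg3 by 19.8-fold (16.4 to 24.1), and Epx exceeded Prg3 by 2.99-fold (2.46 to 3.65). These are descriptions of the counts that chose the set, with intervals for counting error. The step from Prg3 to Ear1 was 1.82-fold (1.29 to 2.60), that from Ear1 to Ear6 2.19-fold (1.35 to 3.59) and that from Ear6 to Ear2 2.21-fold (1.05 to 5.07). All steps that involve Ear1 or Ear2 leave out reads that fit more than 1 copy, since these enter no gene. Epx in the Ezh2 KO-labelled library was at 0.814 of the per-length level of Mpo (0.751 to 0.883), the peroxidase of neutrophil and monocyte granules, which had 1536 counts there and 1794 in WT.

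**Figure D3:**
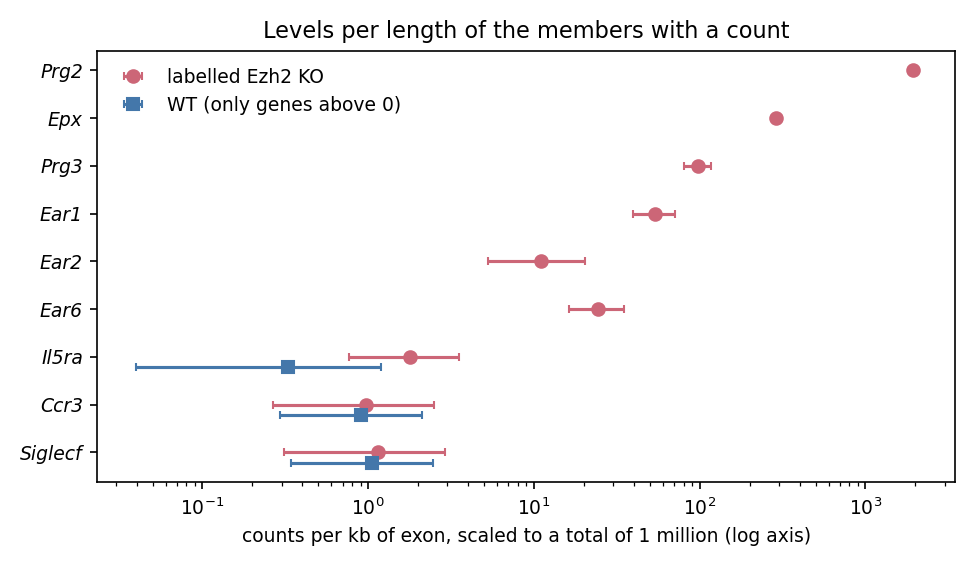
Counts per kb of exon, scaled per library as in TPM, on a logarithmic axis, for each gene of the set that had a count in the Ezh2 KO-labelled library (red circles, with 95% counting intervals), and in WT for the 3 of these genes above 0 there (blue squares). Prg2 at 1925 and Epx at 290 stand far above the receptors, which lie between 0.97 and 1.78.

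The set was next placed among all genes seen in only the Ezh2 KO-labelled library. At 0 counts in WT and at least 10 in that library there were 53 genes, 6 of them from this set, and as many genes, 53, showed the reverse with none from the set. With at least 100 counts there were 7, namely Prg2, Epx and Prg3 together with the 4 Y-linked genes, and 0 in the reverse direction. Prg2 and Epx ranked above the Y-linked genes. Below these came Ear1 with 49 counts, then the lymphoid genes Dntt with 35 and Il2rb with 34, Exph5 with 33, Ear6 with 29 and Igll1, a surrogate light chain of early B cells, also with 29. The complement receptor gene C5ar1 and Eya4 had 25 each.

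Further Ear and ribonuclease genes did not show the pattern. Of the 13 found, 10 had 0 counts in both libraries, among them Ear10, which shares sequence with Ear1 and Ear2. The other 3 passed the filter and 0 were called. Rnase6 had 149 counts in WT and 152 in the Ezh2 KO-labelled library, Rnase4 had 43 and 40, and the angiogenin gene Ang had 9 and 13.

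Transcription factors of the eosinophil lineage were expressed in both libraries and mostly alike. Of 15 that passed the filter, 1 was at least 2-fold higher and 1 lower, with a median log2 ratio of -0.04, beside a median of 0.00 (to 2 decimals) for all genes passing. Cebpe, which drives terminal granulocyte differentiation, was the higher one, with 20 counts in WT and 59 in the Ezh2 KO-labelled library, and Trib1, a pseudokinase that promotes C/EBPα degradation, was the lower one, with 206 and 69. Gata1, a factor required for eosinophil formation, had 44 and 34 counts. Gata2 had 4330 and 3174, its cofactor Zfpm1 1442 and 1195, Spi1 772 and 553, and Cebpa 19 and 11. None of these 5 was past 2-fold.

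The same held for signalling through the IL-5 receptor and its relatives. Of 18 genes that passed the filter, 0 were higher and 1 was lower, with a median log2 ratio of -0.08. The lower gene was Socs3, a feedback inhibitor of cytokine receptors, with 362 counts in WT and 122 in the Ezh2 KO-labelled library. Csf2rb, the chain that IL-5, IL-3 and GM-CSF receptors share, had 206 and 126 counts, its mouse paralog Csf2rb2 76 and 54, Il3ra 58 and 28, Csf2ra 283 and 209 and Stat5a 1307 and 946. Il5, Il3 and Csf2, the ligands, were at 0 in both.

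Among other receptors and adhesion molecules known from eosinophils, 25 of 36 passed the filter, 7 were higher and 2 lower, with a median log2 ratio of 0.27. Several of the 7 are shared with neutrophils or macrophages. They were C5ar1 with 0 and 25 counts, Adgre1, which encodes F4/80, with 0 and 9, the leukotriene B4 receptor gene Ltb4r1 with 25 and 58, the integrin genes Itgam with 73 and 131 and Itgal with 24 and 53, the Fc receptor gene Fcgr3 with 20 and 39, and Cd300lf with 4 and 8. The lower ones were the leukotriene receptor gene Cysltr2 with 152 and 46 and Il10ra with 85 and 29. Genes of the list that were not called included Ccr1 and Hrh4 with 0 and 0 counts, Ptgdr2 with 8 and 3 and Il1rl1 with 5 and 0.

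Of the lipid mediator enzymes, 10 of 13 passed the filter, with 1 higher, 2 lower and a median log2 ratio of -0.39. Alox5, which begins leukotriene synthesis, was the higher one with 14 and 24 counts. The lower ones were Ggt5, which acts on leukotriene C4, with 145 and 52, and the cyclooxygenase gene Ptgs2 with 50 and 2. Ltc4s, the leukotriene C4 synthase gene, had 12 and 6 counts.

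Of the cytokine and chemokine genes, 11 of 17 passed the filter, 4 were higher and 0 lower, with a median log2 ratio of 0.75. The higher ones were Il4 with 19 and 35 counts, the chemokine gene Ccl6 with 12 and 23, Thbs1 with 4 and 52 and Retnlg, which is also a neutrophil gene, with 1 and 20. Il13, Il6 and the eotaxin genes Ccl11 and Ccl24 were at 0 in both. Of 22 genes for granule biogenesis and secretion, which serve granulocytes in general, 2 were higher (Cybb with 95 and 187 counts, Stx11 with 28 and 44), 1 was lower (Lgmn with 32 and 6) and the median log2 ratio was 0.13.

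**Figure D4:**
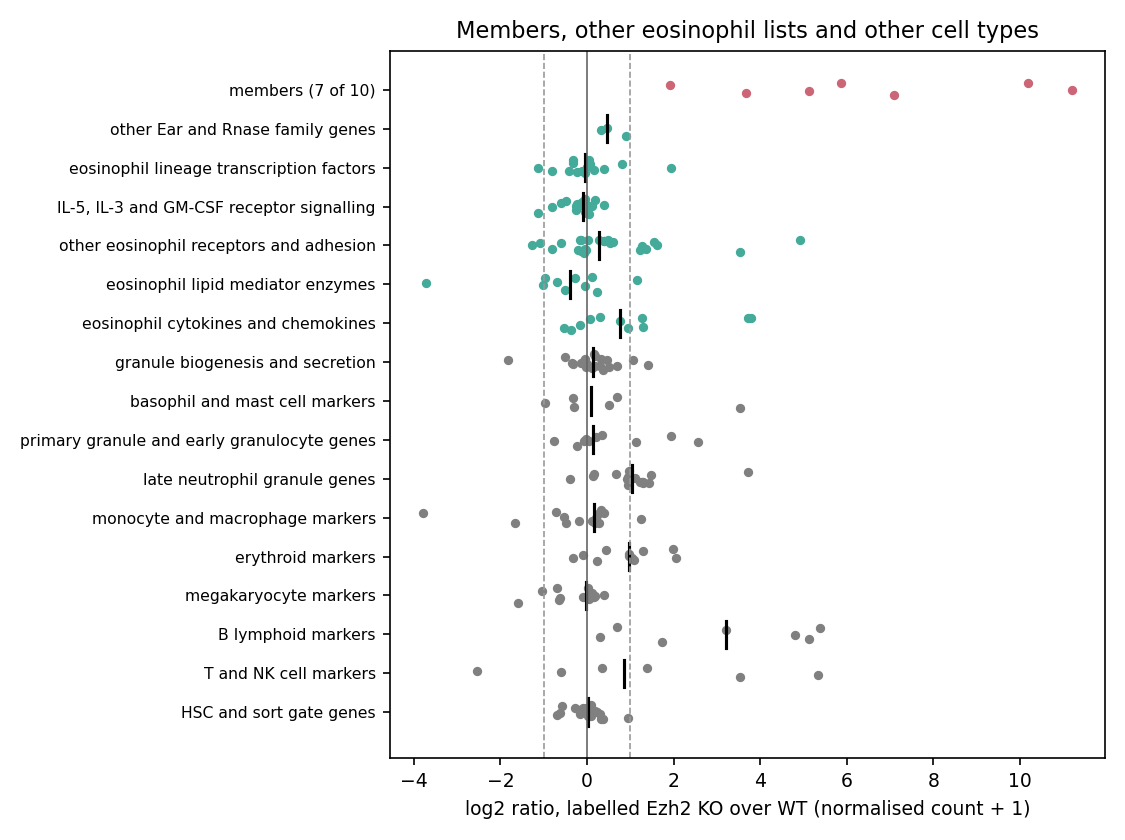
Log2 ratio of each gene that passed the filter, the Ezh2 KO-labelled library over WT on normalised counts plus 1, for 7 genes of the set (red), 6 further eosinophil lists (green) and granule biogenesis and other cell types (grey), with the list median as a black bar and 2-fold as dashed lines. Genes at 0 in WT are placed by the added 1, not by their lower bound. Eosinophil transcription factors and receptor signalling are centred at -0.04 and -0.08, late neutrophil genes at 1.03 and B lymphoid markers at 3.20.

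Markers of some other cell types differed between the libraries as well, and their part in the counts of the eosinophil genes was not tested. With the whole interval beyond 2-fold, 7 late neutrophil, 5 B lymphoid and 2 T and NK cell genes were higher. So were 2 primary granule, 1 basophil and mast cell and 1 erythroid genes. By the same rule 1 T and NK cell, 1 monocyte and macrophage and 1 megakaryocyte gene were lower. Lower genes numbered 0 in the late neutrophil, primary granule, B lymphoid, basophil and mast cell and erythroid lists. Of all genes passing, 1.32% were higher and 0.866% lower by this rule. Of 16 late neutrophil granule genes, 8 were higher and 0 lower, with a median log2 ratio of 1.03, and the whole list summed to 2068 CPM in WT and 4147 in the Ezh2 KO-labelled library. Ngp, one of its most abundant genes, had 2549 and 4621 counts, and Ltf 930 and 1646. Unlike the granule genes of eosinophils, these were thus present in WT. Primary granule genes, which are made earlier in granulocyte development, had 3 of 10 higher and 0 lower, with a median of 0.13. Their summed level was 1325 and 1373 CPM. The higher ones were Igsf6 with 14 and 65 counts, Fcnb with 81 and 131 and Cebpe with 20 and 59. Cebpe is also counted above among the eosinophil lineage factors. Elane had 860 and 374 counts and Prtn3 1332 and 933, neither past 2-fold.

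Basophils and mast cells share progenitors and some granule genes with eosinophils. Of the 6 genes of their list that passed the filter 1 was higher, with a median log2 ratio of 0.10, and the list summed to 247 and 211 CPM. Most of this was Slc18a2, a monoamine transporter gene, with 1327 and 786 counts, and without it the sums were 16.8 and 21.6 CPM, so that their order turned. The higher gene was the basophil protease gene Prss34, with 0 counts in WT and 9 in the Ezh2 KO-labelled library. Defining markers were at or near 0, with 0 and 2 counts for Mcpt8, 0 and 3 for Fcer1a and 0 in both for Ms4a2, Cd200r3, Cma1 and Tpsb2. Cpa3 had 15 and 16 counts.

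Of the B lymphoid list, 5 of 7 genes passing were higher, beside 4.91% of all genes passing. Their median log2 ratio was 3.20, and the list summed to 51.7 and 107 CPM. Of the 13 found, 8 were at 0 in WT, and such genes could pass only by being high in the other library. Vpreb1 had 5 and 41 counts, while Ms4a1 and Rag1 were at 0 in both. Without Cd79b, which had 251 and 229 counts, the sums were 8.16 and 51.7 CPM. Of 6 T and NK cell genes, 3 were higher and 1 lower (median 0.86, with 56.7 and 63.5 CPM), and Cd3e was at 0 in both. Of the 14 found, 8 were at 0 in WT, so that the same limit holds. Of 11 erythroid genes 5 were higher (median 0.98; 1830 and 2331 CPM), among them Car1 with 197 and 607 counts, and the globin genes were listed at 0. Car2, with 9875 and 8590 counts, gave most of these sums, which were 117 and 265 CPM without it. Of 14 monocyte and macrophage genes 1 was higher and 2 were lower (median 0.15; 680 and 815 CPM), with Cx3cr1 at 0 in both. Of 12 megakaryocyte genes 0 were higher and 2 lower (median -0.03; 2249 and 2157 CPM), with Gp6 at 0 in both. With genes at 0 in one library set at their bound, these medians were the same to 2 decimals.

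Genes next to the eosinophil genes were examined in the same way, 5 on each side as available. These neighbours were chosen by position after the counts of the set had been seen. Of 82 neighbours, 35 passed the filter and 4 of these were at least 2-fold higher, beside 4.91% of all genes passing. Their median log2 ratio was -0.06. Slc43a3, the nearest gene before Prg2, had 267 counts in WT and 224 in the Ezh2 KO-labelled library. P2rx3, which begins 4.70 kb past Prg3, had 0 and 7. Mks1, 0.197 kb from Epx, had 70 and 48, and Lpo, the lactoperoxidase gene between Mpo and Epx, was at 0 in both.

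The 4 higher neighbours were Smtnl1 (39 and 74 counts) at 158 kb from Prg2, Rnf43 (2 and 12) at 128 kb from Epx, Lrrn1 (6 and 10) at 781 kb from Il5ra and Siglecg (0 and 16) at 48.7 kb from Siglecf. None of them adjoined Prg2, Prg3, Epx or an Ear gene. However, P2rx3 next to Prg3, Olfr462 next to Epx and AY358078 next to Ear6 were below the filter and could not be called. All 13 neighbours of Ear1 and Ear2 were below the filter.

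**Figure D5:**
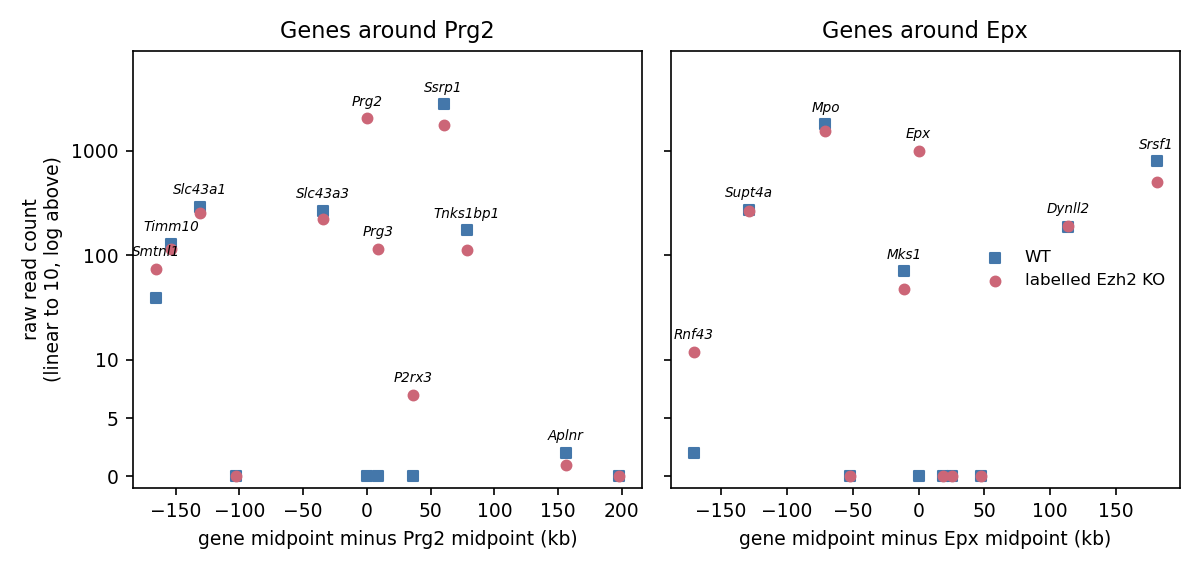
Raw counts of the genes around Prg2 (left) and Epx (right) in WT (blue squares) and the Ezh2 KO-labelled library (red circles), against the distance between gene midpoints in kb. The vertical axis is linear up to 10 and logarithmic above. Prg2 with 2030, Prg3 with 116 and Epx with 1000 counts are at 0 in WT, while the flanking Slc43a3, Mks1 and Mpo have counts in both libraries.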

How the data were processed

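Total RNA of sorted HSCs was amplified with a SMARTer low-input kit, and libraries were made with 8 PCR cycles and sequenced for 61 cycles. The authors deposited raw counts per gene symbol, 1 table per library. Their processing notes name TopHat2 2.0.13, Bowtie2 2.1.0 and mm10. The study's methods credit raw counts to StringTie, whereas the tables end with entries named as in htseq-count output, so which program made them is unclear. The strand setting is not given in the sources used here, and antisense or overlapping genes cannot be separated.

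The 5 entries that name no gene were left out. Reads outside genes made up 44.9% of all entries in WT and 44.1% in the Ezh2 KO-labelled library, ambiguous reads 0.532% and 0.539%, reads with several alignments 10.7% and 12.3%, and the other 2 entries 0.

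Counts were divided by DESeq2 1.42.0 size factors (1.17 and 0.858). Log2 ratios used a pseudocount of 1, and genes with a mean of at least 1 CPM were called at 2-fold. With 1 library per group, neither edgeR nor DESeq2 was fitted as a test. Intervals were exact Poisson for counts, exact binomial (Clopper-Pearson) for shares and exact conditional binomial for ratios (scipy 1.17.1). The calls were tested on simulated data with counting error alone. Changes were planted only in genes well above the floor, so that genes near it or unseen in WT were not covered.

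The genes and lists were chosen with earlier results of these data known. Named were all 10 genes, Ezh2, related Ear and Rnase genes with a count, eosinophil genes past 2-fold with fixed lineage and receptor genes, the top genes at 0 in WT, and defining or abundant markers of other cell types. Not every gene that this rule selects is reported, and others given at 0 were named after their values were seen. Other scalings (TMM from edgeR 4.0.16 and total counts), pseudocounts, filters, thresholds, thinning and lengths were tried, and list sums without the most abundant gene were added after seeing the data. Lengths and positions came from GENCODE M21 and promoters from RefSeq.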

Additional observations from a re-analysis of the deposited data

Results flagged for a closer look

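Reads that aligned to more than 1 place were given to no gene and enter no comparison above. They made up 10.7% of all entries in the WT table and 12.3% in the table labelled Ezh2 KO, and were singled out as signal in data that the report does not use, higher in the latter library. Exact copies in other annotated genes were found for 49.1% of the windows of Ear1 and 32.7% of those of Ear2. How many of the reads came from these genes is not recorded in the tables, and the difference was not tested. None of the windows of Ear6, Prg2, Epx or Prg3 has such a copy.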

How the results depend on the processing

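With 1 library per group, no replicate could be left out and the values have no replicate error. No paired analysis was possible because only 1 WT and 1 Ezh2 KO-labelled library exist here. The count of 7 genes at least 2-fold higher was 3 with a filter of at least 10 CPM, which by construction leaves only Prg2, Epx and Prg3. It was 6 or 7 under each other setting tried. A pseudocount of 5 lowered the log2 ratio from 11.21 to 8.89 for Prg2, from 10.19 to 7.87 for Epx, from 7.09 to 4.81 for Prg3, from 5.86 to 3.63 for Ear1 and from 5.12 to 2.96 for Ear6, as it must for genes at 0 in WT. The other 45 of 50 log2 ratios stayed within their counting intervals, and 0 changed direction. For the 6 genes at 0 in WT the interval has no upper end, so that a rise could not leave it. For Alox15 it has no lower end, so that a fall could not. The largest shift of a log2 ratio of the 10 genes was 0.02 under total-count scaling. The summed share of 0.0782% was 0.00529% without Prg2 and Epx, and 0.0929% of gene counts without the 100 most abundant genes. With the longest transcript in place of all exons, per-length levels were 1433 for Prg2, 220 for Epx and 72.3 for Prg3, since shorter lengths of other genes enlarge the total. Counts of higher genes in the other lists moved by more than 1.5 times in 43 of 160 cases and of lower genes in 33 of 160, mostly lists with few calls. The floor of 3 counts limits what can be said of Il5ra, Ccr3, Siglecf and Alox15.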
